A study of Mus musculus with 98 samples.

Results

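The cells described here are 35 regenerated innate lymphoid cells (ILCs) from mouse intestine, chosen by their titles and divided by their own level of Runx1 messenger RNA. They are the regenerated cells whose titles end in 1, and they make up 35 of 67 regenerated cells and of 98 deposited columns in all. A cell was called Runx1-high when Runx1 stood at 100 TPM or more and Runx1-low when it stood below that limit, which gave 27 Runx1-high and 8 Runx1-low cells. TPM, the deposited unit, is an abundance corrected for transcript length and scaled to the same total in every cell. Both sets share 1 origin per the labels. They are R9-ILCs, regenerated from pluripotent stem cells, sorted as CD45.2+GFP+Lin-CD127+ cells from the gut of Rag2-/-Il2rg-/- recipients, 3 weeks after transplantation. Such hosts lack T and B cells of their own and have no common gamma chain on their own lymphocytes. The 32 regenerated cells with no numeric title ending carry the same description and were used as cells outside the rule. WT-ILCs, sorted as CD45.2+Lin-CD127+ cells from the intestine of C57BL/6 mice aged 8 weeks, were used for levels only. The labels name no animal, do not say what the title ending stands for and do not describe the construct behind the name R9. Regenerated cells that share a title number across both title series were taken as different cells.

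RUNX1 is a transcription factor that binds DNA through its Runt domain together with the partner CBFb, and it is required for the emergence of blood stem cells. HOXA9 is a homeobox factor of blood stem and progenitor cells, encoded in the HOXA cluster. In published work the name R9 stands for mouse pluripotent stem cells with an inducible cassette that encodes Runx1 and Hoxa9 together, so transcripts of both genes can come from a transgene, from the cell's own genes, or from both. ILCs are lymphocytes without rearranged antigen receptors. Group 3 ILCs (ILC3s) of the gut carry receptors for interleukin 7 and interleukin 23 and help to guard the epithelium.

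Since the split used Runx1, the Runx1 values describe the sets and test nothing. Runx1 (chr16:92601466-92826074, GRCm38.p6, the same build as mm10) stood at 209 TPM in the lowest, 602 TPM in the median and 1612 TPM in the highest Runx1-high cell. In Runx1-low cells it stood at 1.19, 4.29 and 87.8 TPM in the lowest, median and highest cell. No cell lay between the sets, and the cells nearest to the limit had 209, 219 and 222 TPM on the Runx1-high side and 87.8, 52.9 and 34.3 TPM on the Runx1-low side. On the log2(TPM + 1) scale, the mean was 9.12 ± 0.87 (SD over cells, n = 27) in Runx1-high cells and 3.37 ± 2.08 (n = 8) in Runx1-low cells. Every Runx1-low cell held more than 1 TPM of Runx1, so the 8 cells are low for Runx1 and none of them is listed at 0. With no replicate animals in the labels, each set counts as 1 sample and the differences below carry no test.

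Hoxa9 (chr6:52223097-52227370), reported apart from all other genes because it may share the transgene with Runx1, followed the split without overlap. Hoxa9 stood at 62.5 TPM in the lowest, 758 TPM in the median and 3044 TPM in the highest Runx1-high cell. In Runx1-low cells it stood at 1.21, 4.15 and 43.8 TPM in the lowest, median and highest cell. Its mean log2(TPM + 1) was 9.49 ± 1.35 (SD, n = 27) in Runx1-high cells and 2.68 ± 1.35 (n = 8) in Runx1-low cells, a difference of 6.81, larger than that of Runx1 itself at 5.74. Hoxa9 reached 100 TPM in 26 of 27 Runx1-high cells (96.3%, 95% Clopper-Pearson interval 81.0 to 99.9) and in 0 of 8 Runx1-low cells (0%, interval up to 36.9). These intervals cover counting error only.

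**Figure D1:**
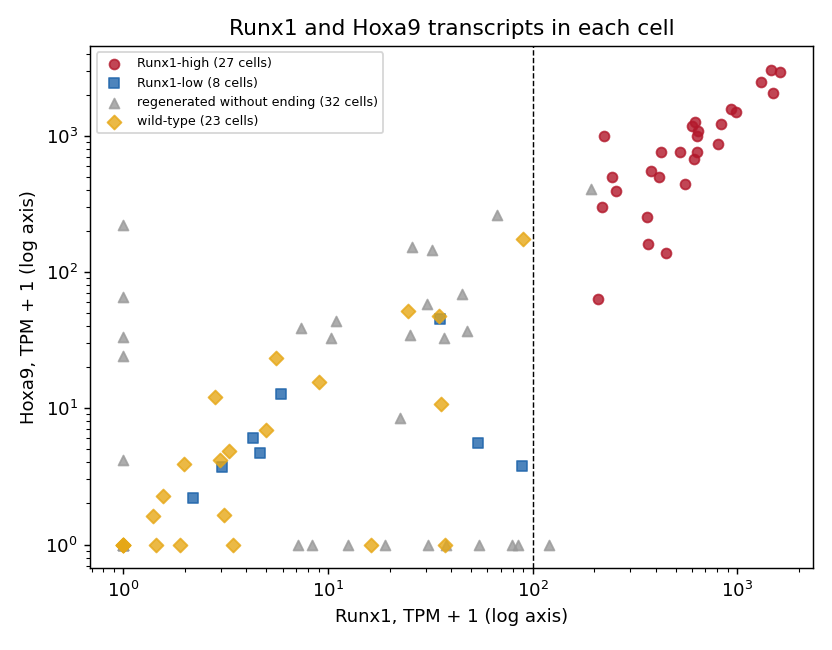
Runx1 (x axis) against Hoxa9 (y axis), both as TPM + 1 on log axes, with 1 point per cell for Runx1-high, Runx1-low, other regenerated and wild-type cells and a dashed line near the Runx1 limit. Wild-type columns of the same number are averaged into 1 point. The 27 Runx1-high cells lie at 209 TPM of Runx1 or more and at 62.5 TPM of Hoxa9 or more, and the 8 Runx1-low cells lie at 87.8 TPM of Runx1 or less and at 43.8 TPM of Hoxa9 or less.

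The 2 transcripts also moved together inside the Runx1-high set. Spearman's rho between Runx1 and Hoxa9 TPM was 0.861 over the 27 Runx1-high cells, and Pearson's r of the log2 values was 0.79. Without the 2 cells farthest from the median Runx1 level, these values were 0.839 and 0.75 over 25 cells. No other gene of the 1873 that reached 1 TPM in at least 18 cells came as close within the Runx1-high set, where the others ranged in rho from -0.65 to 0.635. All these points come from cells that share a sort and a title series, so the values are given as a description. The log2 ratio of Hoxa9 to Runx1 was 0.37 ± 0.85 (SD) in Runx1-high cells, with a lowest value of -1.74 and a highest of 2.16.

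The Runx1-low cells were not uniform. In 5 of them both transcripts were low, with Runx1 between 1.19 and 4.91 TPM and Hoxa9 between 1.21 and 11.8 TPM. The cell with title number 4 had 34.3 TPM of Runx1 and 43.8 TPM of Hoxa9. The cells with title numbers 20 and 34 had 52.9 and 87.8 TPM of Runx1 with only 4.57 and 2.80 TPM of Hoxa9, and they held 3874 and 6165 TPM of Cd3g, a chain of the CD3 complex. These 2 cells were singled out after their values were seen. Cd3g reached 100 TPM in 7 of 27 Runx1-high cells and 2 of 8 Runx1-low cells. The Runx1-high cell with the lowest Runx1 and Hoxa9, title number 28, held 3774 TPM of it. Spearman's rho between Runx1 and Hoxa9 over the 8 Runx1-low cells was 0.452.

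Cells outside the rule seldom held both transcripts at 100 TPM or more. In the 32 regenerated cells with no title ending, Runx1 ran from 0 TPM through a median of 19.7 to 192.6 TPM, and Hoxa9 ran from 0 through 15.4 to 406.7 TPM. Only 1 of these 32 cells held 100 TPM or more of both transcripts, while 1 held Runx1 alone and 4 held Hoxa9 alone at that level. Spearman's rho between the 2 genes was 0.115 there, with Runx1 listed at 0 in 9 and Hoxa9 in 14 of the 32 cells. Neither gene was listed at 0 in any Runx1-high cell, so the rho values of these groups are not on an equal footing. Wild-type columns of the same number were averaged as if they were 1 cell, which the labels do not state. Of the 23 values this gave, none reached 100 TPM of Runx1 and 1 reached 100 TPM of Hoxa9. The rho between the genes was 0.610, with Runx1 listed at 0 in 4 and Hoxa9 in 9 of the 23. A single column can lie above its average, so these counts do not hold for the columns taken singly. The wild-type table was normalized separately by the authors.

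Hoxa5, Hoxa7 and Hoxa10, from the same cluster as Hoxa9, did not share its pattern. Hoxa5 was above 1 TPM in 1 Runx1-high cell at 34.3 TPM and was listed at 0 in all 8 Runx1-low cells. Hoxa7 and Hoxa10, on either side of Hoxa9, were listed at 0 in all 35 cells. Of 21 HOX genes and cofactors, 14 were listed at 0 in all 35 cells, and the only one detected often enough to be compared was the cofactor gene Meis1, which reached 1 TPM in 10 of 27 Runx1-high and 3 of 8 Runx1-low cells. An exact 0 in these tables can be a failed estimate, so such an entry does not show that a gene was silent.

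The promoter sequences of both genes are shown because a transcript from the cell's own gene would start there, while a cassette can use another promoter. RefSeq places 2 start sites of Runx1 on the minus strand of chromosome 16. The 100 bases before the distal start (chr16:92826075-92826174), those before the proximal start (chr16:92697330-92697429) and those before the Hoxa9 start (chr6:52227371-52227470, minus strand) read as follows, 5′ to 3′.
Runx1, distal start: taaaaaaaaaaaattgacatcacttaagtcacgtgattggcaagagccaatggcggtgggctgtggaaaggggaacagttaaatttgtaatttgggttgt
Runx1, proximal start: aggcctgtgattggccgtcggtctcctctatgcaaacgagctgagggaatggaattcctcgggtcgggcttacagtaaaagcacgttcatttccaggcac
Hoxa9: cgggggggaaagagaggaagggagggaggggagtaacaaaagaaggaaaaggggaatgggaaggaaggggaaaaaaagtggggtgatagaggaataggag

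The RUNX core motif TGTGGT, or ACCACA on the other strand, was searched on both strands in windows from 250 bases before to 50 after each RefSeq start. The distal Runx1 window held 2 matches, which begin at bases 29 and 37 after the start and are in capitals in this stretch of chr16:92826025-92826054, minus strand.
Runx1 motif stretch: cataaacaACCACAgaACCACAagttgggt
The proximal Runx1 window and the Hoxa9 window held no match. Among genes compared between the sets, 762 of 4994 with a window held the motif (15.3%). The share was 15 of 99 (15.2%) among genes called higher and 62 of 390 (15.9%) among genes called lower in Runx1-high cells, by the limits given next. A match to these letters is no evidence of binding.

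All other genes were compared by the mean of log2(TPM + 1), with a difference of 2 or more on that scale (Runx1-high minus Runx1-low) named as higher or lower. This scale understates differences of low genes. Of 6670 genes at 1 TPM or more in at least 4 of the 35 cells, 128 were higher in Runx1-high cells (1.92%) and 515 were lower (7.72%). By detection, taken as 1 TPM or more, 21 genes were found more often in Runx1-high cells by 40 percentage points or more (0.315%) and 157 less often (2.35%). Among genes detected in at least 18 cells, these counts were 13 and 37. With 8 cells against 27, 1 cell shifts a share or mean more in the Runx1-low set. A gene detected in few cells can therefore pass the limits more easily as lower than as higher, and the part of this in the counts was not tested. The median difference of all genes was -0.19, with 2838 genes above 0 and 3832 below. The excess of lower genes depended on the mean used: by the log2 ratio of mean TPM, 1551 genes were higher and 646 lower and the median was 0.21. Without each gene's own highest value in each set, 242 were higher and 303 lower with a median of 0.24. The cell left out there can differ from gene to gene. That step takes 1 of 8 Runx1-low values but 1 of 27 Runx1-high values, so it weighs more on the Runx1-low means. Of 72 genes past the limit under the naming rule, 42 came under it by the ratio of mean TPM, 39 with a pseudocount of 10 TPM, 19 with a Runx1 limit of 50 TPM and 23 when some Runx1-low cell was left out. Where leaving out a cell ends the call of a gene, the value nearest to 0 is given beside it. Runx1-high cells held 1913, 2361 and 6042 detected genes in the lowest, median and highest cell, against 2178, 2755.5 and 5787 in Runx1-low cells. Among the 19 Runx1-high and 8 Runx1-low cells in a shared range of genes per cell, 192 genes were higher and 462 lower, 46 were detected more often and 122 less often. Without the Runx1-low cell of title number 1, the counts were 212 higher genes and 60 genes detected more often; without those of title numbers 14 and 36, each left out in turn, 39 and 37 genes were detected more often.

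Hoxa9 was the only gene beside Runx1 whose values did not overlap between the sets: 0 of 6670 genes lay wholly above (0%) and 0 wholly below (0%). Of the 216 pairs of a Runx1-high with a Runx1-low cell, the Runx1-high cell had more Hoxa9 in 100%. The nearest other gene, Zfp260, a zinc finger gene picked after its value was seen, stood higher in the Runx1-high cell in 83.8% of pairs. At the other end, Lypla2 and Arid4a stood higher in 6.02%. Whole profiles of the sets were about as alike across the split as within it. Pearson's r over the compared genes had a median of 0.34 over 351 pairs of Runx1-high cells, 0.33 over 28 pairs of Runx1-low cells and 0.34 over 216 pairs across the sets.

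**Figure D2:**
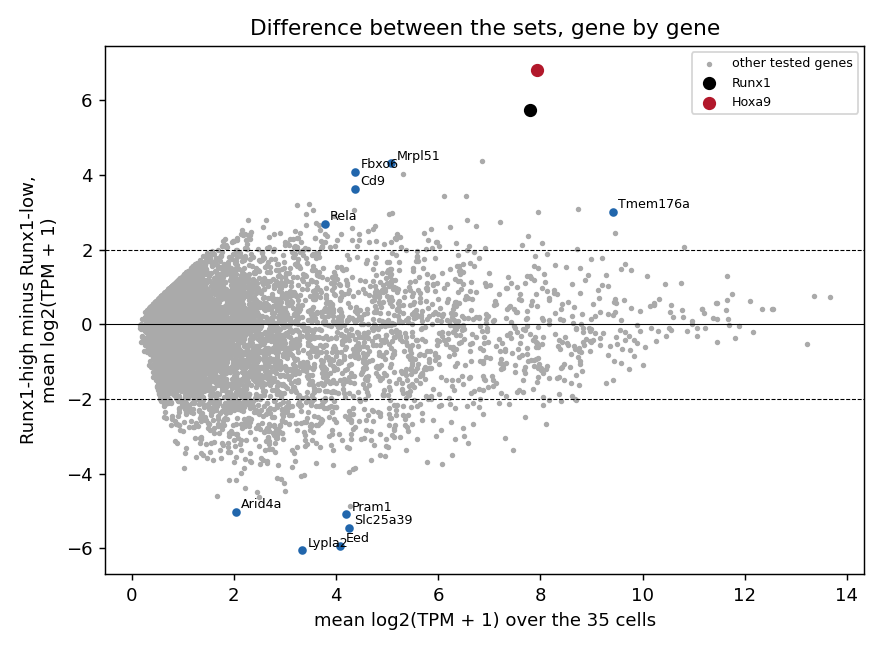
Difference of mean log2(TPM + 1), Runx1-high minus Runx1-low (y axis), against the mean log2(TPM + 1) of the 35 cells (x axis), with 1 point per gene. Hoxa9 at 6.81 lies above every other gene compared, of which the highest is Rpl9 at 4.38, and Lypla2 lies lowest at -6.05.

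Both sets showed the genes of their sort and of ILC3s. Il7r, which encodes CD127, stood at 346, 1481 and 3327 TPM in the lowest, median and highest Runx1-high cell, and at 12.9, 1018 and 2673 TPM in Runx1-low cells. Id2, the ILC lineage regulator, reached 100 TPM in all 35 cells. Il23r, the interleukin 23 receptor chain, was detected in 25 of 27 Runx1-high and 8 of 8 Runx1-low cells, and reached 100 TPM in 15 Runx1-high and 2 Runx1-low cells. Ltb, the lymphotoxin chain of ILC3s, had medians of 5376 TPM in Runx1-high cells and 3372 TPM in Runx1-low cells. Among markers of other types, Ncr1 of NK cells and some ILCs, Il1rl1 of ILC2s, and the mast cell proteases Cma1 and Tpsb2 were listed at 0 in all 35 cells. Other markers of those and further types were detected: Gata3 of ILC2s and T cells in 8 Runx1-high and 2 Runx1-low cells, the receptor gene Klrb1b of the NK list in all 35, the mast cell gene Cpa3 in 2 Runx1-high and 1 Runx1-low cell, Epcam of epithelium in 10 Runx1-high and 4 Runx1-low cells, and Cd3e of T cells and C1qc of macrophages in 1 Runx1-high cell each. Of 18 core ILC and sort genes compared, 0 were higher and 1 was lower (5.56%, beside 7.72% of all genes). This was Cd44, an adhesion receptor, at -2.01, or -1.09 without title number 6.

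A pair of the Runx1-low cells stood apart in these markers. The cell of title number 6 had 12.9 TPM of Il7r beside 14051 TPM of Id2. The cell of title number 1 had 91.8 TPM of Il7r and 142 TPM of Id2, 5787 detected genes, 1295 TPM of the epithelial gene Epcam and 193471 TPM of the haemoglobin gene Hba-a1, which made up 19.3% of its TPM. Among Runx1-high cells the highest Hba-a1 value was 40140 TPM and the highest Epcam value 550 TPM. With both cells left out, an alternative added after seeing the data, 292 genes were higher in Runx1-high cells.

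Among 22 ILC3 genes compared, 4 were higher in Runx1-high cells (18.2%, beside 1.92% of all genes) and 2 lower (9.09%, beside 7.72%), with a median difference of 0.29 beside -0.19 for all genes. Members of this and the other gene lists were chosen with earlier results of these data known, so such shares are description only. Tmem176a and Tmem176b, neighbouring genes for membrane proteins abundant in ILC3s, were both higher, Tmem176b by less. Tmem176a (chr6:48841483-48845364) stood at 25.7, 2178 and 12466 TPM in the lowest, median and highest Runx1-high cell, against 17.4, 63.6 and 3197 TPM in Runx1-low cells. The sets overlapped: 23 of 27 Runx1-high cells (85.2%, 66.3 to 95.8) and 3 of 8 Runx1-low cells (37.5%, 8.52 to 75.5) reached 100 TPM, for a difference of 3.02, or 1.68 by the log2 ratio of mean TPM. Tmem176b had medians of 2703 TPM in Runx1-high and 1316 TPM in Runx1-low cells and a difference of 2.07, and 6 of 8 Runx1-low cells reached 100 TPM. That difference was 1.42 without title number 34 and 0.50 by the log2 ratio of mean TPM, both under the limit. The cells of title numbers 14 and 20 held 5157 and 1288 TPM of Tmem176b with 17.4 and 21.9 TPM of Tmem176a, and 4 of 27 Runx1-high cells likewise held 1000 TPM or more of Tmem176b with less than 100 TPM of Tmem176a.

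The starts of Tmem176a and Tmem176b used here lie 109 to 668 bases from each other on opposite strands of chromosome 6, and their promoter windows overlap. The annotated span of Tmem176b (chr6:48833811-48845948) covers that of Tmem176a and reaches past these starts. The 100 bases before a RefSeq start of each are shown for this reason (Tmem176a, plus strand, chr6:48841383-48841482; Tmem176b, minus strand, chr6:48841138-48841237).
Tmem176a: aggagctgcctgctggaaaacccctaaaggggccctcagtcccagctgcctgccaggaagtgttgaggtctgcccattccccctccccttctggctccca
Tmem176b: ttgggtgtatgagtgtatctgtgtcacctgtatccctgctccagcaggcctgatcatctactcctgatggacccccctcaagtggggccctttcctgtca
The RUNX core motif was in none of the windows at the starts used for these 2 genes.

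The other higher ILC3 genes were 2 chemokine receptors of lymphoid tissue inducer cells. Ccr6 (chr17:8236041-8258519) ran from 0 through a median of 3.89 to 2080 TPM in Runx1-high cells and from 0 through 1.98 to 39.4 TPM in Runx1-low cells. It reached 100 TPM in 8 of 27 Runx1-high cells (29.6%, 13.8 to 50.2) and 0 of 8 Runx1-low cells (interval up to 36.9), with a difference of 2.37. Cxcr5 (chr9:44511787-44526444) was detected in 13 of 27 Runx1-high cells (48.1%, 28.7 to 68.1) and in 0 of 8 Runx1-low cells, with a difference of 2.43. It thus entered the comparison through Runx1-high cells alone. It reached 100 TPM in 6 of 27 Runx1-high cells, so in both genes a minority of the Runx1-high cells held the high values. Kit, a receptor of lymphoid progenitors and many ILC3s, had medians of 109 TPM in Runx1-high and 5.61 TPM in Runx1-low cells but differed by less than the limit. Among homing and residence genes, 2 of 16 compared were higher (12.5%, beside 1.92% of all genes), the same Ccr6 and Cxcr5. Of the 16, 1 was lower (6.25%, beside 7.72%), the integrin gene Itgb2 at -2.05, which was -1.28 without title number 4. Cxcr6, the receptor for CXCL16, had medians of 818 TPM in Runx1-high and 2306 TPM in Runx1-low cells.

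The lower ILC3 genes were Pram1 and Batf3. Pram1 (chr17:33638056-33645706), an adaptor protein gene, ran from 0 through 2.74 to 1588 TPM in Runx1-high cells and from 0.81 through 716 to 1605 TPM in Runx1-low cells. It reached 100 TPM in 6 of 27 Runx1-high cells (22.2%, 8.62 to 42.3) and 6 of 8 Runx1-low cells (75.0%, 34.9 to 96.8), and the difference was -5.08. Batf3, a transcription factor gene, differed by -2.03, and by -1.18 without title number 6. Of 5 ILC2 genes and 4 ILC1 and NK genes compared, 0 passed the limit either way, and the same held for 15 ILC development factors and 28 cytokine receptor and JAK-STAT genes. Of all genes 1.92% were higher and 7.72% lower, so a count of 0 in lists of these sizes is not far from the background. Of 11 effector cytokine genes compared, 1 was lower (9.09%, beside 7.72% of all genes), the growth factor gene Hbegf at -3.34.

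Several subunits of NF-kappa B, the transcription factor downstream of TNF-family receptors, were higher in Runx1-high cells, while most of the pathway was not. Of 17 genes compared, 3 were higher and 0 lower, and the list's median was -0.07. The higher share was 17.6%, beside 1.92% of all genes. Rela (chr19:5637442-5648134), which encodes the p65 subunit, ran from 0 through 2.71 to 1016 TPM in Runx1-high cells and from 0.42 through 0.88 to 144 TPM in Runx1-low cells. It reached 100 TPM in 10 of 27 Runx1-high cells (37%, 19.4 to 57.6) and 1 of 8 Runx1-low cells (12.5%, 0.32 to 52.7), and the difference was 2.69. Nfkb1, for the p50 subunit and its precursor, differed by 2.25 and reached 100 TPM in 6 of 27 Runx1-high and 0 of 8 Runx1-low cells. Nfkb2, for the p52 subunit and its precursor, differed by 2.12 (1.92 without title number 14) and reached that level in 11 of 27 Runx1-high and 1 of 8 Runx1-low cells. The intervals of these shares cover counting error only. The sets overlapped: the Runx1-high cell stood higher in 71.3% of pairs for Rela, 70.8% for Nfkb1 and 56.9% for Nfkb2. Among the 32 regenerated cells with no title ending, those with Runx1 at 1 TPM or more were set against those below, all listed at 0, which can be a failed estimate. There Rela differed by 1.98, Nfkb1 by -1.14 and Nfkb2 by -1.05, beside a median of 0.54 for all genes.

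Of 5 genes of the RUNX family and its partners and 8 known RUNX1 targets compared, 0 passed the limit. Beside 1.92% higher and 7.72% lower of all genes, a count of 0 in lists this small is near the background. The partner gene Cbfb was detected in 10 of 27 Runx1-high cells (37%, 19.4 to 57.6) and 3 of 8 Runx1-low cells (37.5%, 8.52 to 75.5), with a difference of -0.55. Runx3, the RUNX family member of ILCs and cytotoxic lymphocytes, was detected in the same numbers, 10 Runx1-high and 3 Runx1-low cells, with a difference of 0.16. Runx2, known from bone formation, was detected in 2 Runx1-high cells and 0 Runx1-low cells. Of 30 genes listed as known RUNX1 targets, 15 were listed at 0 in all 35 cells, and the 8 compared had a median of 0.69. Of 10 regulators of blood stem and progenitor cells compared, 1 was higher, the homeobox gene Hhex at 2.21, and 0 were lower.

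**Figure D3:**
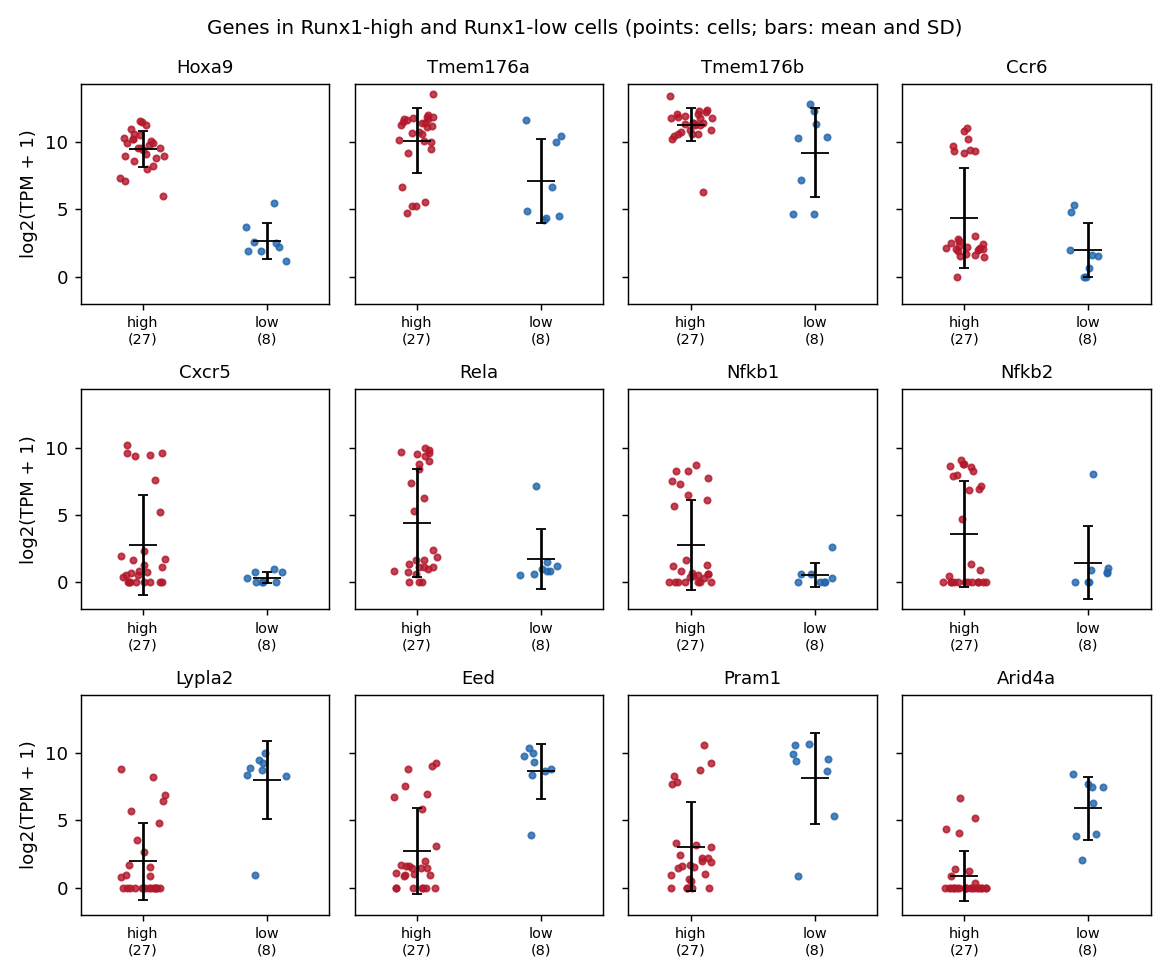
Level of 12 named genes in each cell (y axis, log2(TPM + 1)), with Runx1-high cells on the left and Runx1-low cells on the right of each panel and bars for the mean and SD over cells. Hoxa9 is separated between the sets, while the other genes overlap: Tmem176a has means of 10.11 in Runx1-high and 7.09 in Runx1-low cells, and Lypla2 has means of 1.96 in Runx1-high and 8.01 in Runx1-low cells.

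The 15 genes with the highest differences under the naming rule were Mrpl51, Fbxo6, Mrpl33, Cd9, Tpm3, Gltscr2, Gde1, Brd9, Chchd2, Mad2l2, Tssc4, Tmem176a, Hypk, Pdrg1 and Pisd-ps3. The rule ranked genes that kept their sign when each Runx1-low cell was left out and at other Runx1 limits. The sign also had to hold without the gene's own highest value in each set. Mrpl51 and Mrpl33 encode proteins of the mitochondrial ribosome. Mrpl51 (chr6:125192200-125194392) ran from 0 through 253 to 886 TPM in Runx1-high cells and from 0 through 1.45 to 226 TPM in Runx1-low cells. Levels of 100 TPM were reached in 18 of 27 Runx1-high (66.7%, 46.0 to 83.5) and 1 of 8 Runx1-low cells (12.5%, 0.32 to 52.7), and its difference of 4.31 led the 15. Fbxo6 (chr4:148145716-148152135), a subunit of ubiquitin ligases that binds glycoproteins, ran from 0 through 219 to 1440 TPM in Runx1-high cells and from 0 through 0 to 122 TPM in Runx1-low cells. Its difference was 4.08.

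Cd9 (chr6:125460266-125494760), a tetraspanin of the cell surface, was detected in 23 of 27 Runx1-high cells (85.2%, 66.3 to 95.8) and 3 of 8 Runx1-low cells (37.5%, 8.52 to 75.5). Its median was 9.04 TPM in Runx1-high cells and 0 in Runx1-low cells, and 11 of 27 Runx1-high and 1 of 8 Runx1-low cells reached 100 TPM. Chchd2, a mitochondrial protein gene, reached 100 TPM in 26 of 27 Runx1-high and 4 of 8 Runx1-low cells. Brd9, a subunit of a SWI/SNF chromatin remodelling complex, had 875 TPM in its highest Runx1-high cell and 3.44 TPM in its highest Runx1-low cell. Gltscr2, a nucleolar protein gene, had the highest rank correlation with Runx1 after Hoxa9 over the 35 cells (rho of 0.552), a value that the split itself enters. Differences of the 15 genes ran from 2.96 to 4.31. Of the 15, 9 stayed past the limit by the log2 ratio of mean TPM and 12 with a Runx1 limit of 50 TPM. With a pseudocount of 10 TPM, 13 did.

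The 15 genes at the other end included Lypla2, Eed, Slc25a39, Pram1, Arid4a, Marc2, Auh, Stx12, Mapre1, Dtymk, Ccdc90a, Hddc2, Adi1 and Sae1, with differences from -6.05 to -4.13. Lypla2 (chr4:135968224-135972612), which encodes a thioesterase that removes palmitate from proteins, ran from 0 through 0 to 456 TPM in Runx1-high cells and from 0.93 through 457 to 1044 TPM in Runx1-low cells. It reached 100 TPM in 3 of 27 Runx1-high cells (11.1%, 2.35 to 29.2) and 7 of 8 Runx1-low cells (87.5%, 47.3 to 99.7). These 2 intervals cover counting error over single cells only, and Lypla2 was picked as the lowest of the many genes ranked. The Runx1-low cell under 100 TPM was title number 1, at 0.93 TPM.

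Eed (chr7:89954654-89980976), a core subunit of Polycomb repressive complex 2 that reads methylated histone H3, ran from 0 through 1.75 to 603 TPM in Runx1-high cells and from 14 through 541 to 1324 TPM in Runx1-low cells. It reached 100 TPM in 6 of 27 Runx1-high cells (22.2%, 8.62 to 42.3) and 7 of 8 Runx1-low cells (87.5%, 47.3 to 99.7), again all but title number 1. Slc25a39 (chr11:102402969-102408675), a mitochondrial carrier for glutathione, reached that level in 6 of 27 Runx1-high and 7 of 8 Runx1-low cells. Its low value among Runx1-low cells was 3.56 TPM, in title number 7. Marc2, a mitochondrial reductase, reached 100 TPM in 7 of 27 Runx1-high and 7 of 8 Runx1-low cells, and the Runx1-low exception was title number 36 at 6.05 TPM. The low value among Runx1-low cells thus fell in different cells for different genes.

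Arid4a (chr12:71015081-71099351), a retinoblastoma-binding chromatin factor, reached 100 TPM in 0 of 27 Runx1-high cells (interval up to 12.8) and 4 of 8 Runx1-low cells (15.7 to 84.3%). It was detected in 6 of 27 Runx1-high and in 8 of 8 Runx1-low cells. Mapre1, a protein of growing microtubule ends, was likewise detected in 7 of 27 Runx1-high and 8 of 8 Runx1-low cells. Each of the 15 genes stayed lower, past the limit, without each Runx1-low cell in turn. Keeping the sign there was part of the rule that named them. By the log2 ratio of mean TPM, 11 of the 15 stayed past the limit. Of 19 chromatin regulators compared, however, Eed alone passed the limit (5.26% lower, beside 7.72% of all genes).

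Of 18 MHC class I genes compared, 1 was higher (5.56%, beside 1.92% of all genes) and 3 lower (16.7%, beside 7.72%). Pdia3, a chaperone that loads peptides onto MHC class I, ran from 0 through 12.6 to 1239 TPM in Runx1-high cells and from 309 through 493 to 704 TPM in Runx1-low cells, so that all 8 Runx1-low cells lay inside a narrow band that the Runx1-high cells straddled. Its difference was -3.74, with Calr at -2.35, Tap2 at -2.25 and the class I gene H2-Q7 at 2.20. Leaving out 1 Runx1-low cell brought these to -1.92 (title number 1), -1.71 (title number 7) and 1.59 (title number 20). Of 14 heat shock genes compared, 2 were lower (14.3%), Hspa5 of the endoplasmic reticulum at -2.40 and Dnajb1 at -2.17, which was -1.58 without title number 20. Of 3 MHC class II genes compared, 0 passed the limit.

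Of 19 interferon response genes compared, 0 were higher and 3 lower (15.8%, beside 7.72% of all genes), with a median of -0.46. Ifi47, an interferon-induced GTPase, ran from 0 through 1.66 to 1457 TPM in Runx1-high cells and from 0.43 through 590 to 1263 TPM in Runx1-low cells. At least 100 TPM was held by 4 of 27 Runx1-high cells (14.8%, 4.19 to 33.7) and 5 of 8 Runx1-low cells (62.5%, 24.5 to 91.5), and the difference was -4.05. Igtp, another such GTPase, differed by -2.33 (-1.61 without title number 14) and Usp18, which removes ISG15, by -2.23 (-1.27 without title number 6).

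A few survival and death genes passed the limit, in both directions. Bcl2l1, whose long product protects from apoptosis, was detected in 14 of 27 Runx1-high cells (51.9%, 31.9 to 71.3) and 0 of 8 Runx1-low cells, with a difference of 2.43. It entered the comparison through Runx1-high cells alone. Trp53 reached 100 TPM in 11 of 27 Runx1-high and 6 of 8 Runx1-low cells, with a difference of -2.67. Its mean TPM did not follow, at 442 TPM in Runx1-high and 420 TPM in Runx1-low cells. Of 16 survival and death genes compared, 1 was higher (6.25%, beside 1.92% of all genes) and 2 lower (12.5%, beside 7.72%). The second lower gene was Bad at -2.22, which was -1.64 without title number 14. Of 22 cell cycle genes compared, 1 was lower (4.55%), Ccnd2 (cyclin D2) at -3.09. Of 18 immediate early genes 1 was lower (5.56%), Ier2 at -2.99. Both shares were under the 7.72% of all genes.

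Of 29 oxidative phosphorylation genes, 1 was higher (Sdhb at 2.64, or 1.96 without title number 4) and 2 lower (Ndufb8 at -2.66, and Cox5a at -2.12 or -1.71 without title number 1), and of 14 glycolysis genes 2 were lower (Pfkp at -2.57, and Pgk1 at -2.59 or -1.86 without title number 20). Of 36 proteasome subunit genes 4 were lower, led by Psmd1 at -3.17, and of 44 ribosomal protein genes 3 were higher and 4 lower. These lists' medians were -0.45, -0.30, -0.02 and -0.15 in the same order. Several of the proteasome and ribosomal calls ended when 1 Runx1-low cell was left out. Psmc6 came to -1.56 without title number 7, and Psmd11 and Psmd14 to -1.83 and -1.85 without title number 20. The higher ribosomal genes Rpl3, Rpl8 and Rps15 came to 1.59, 1.42 and 1.00 without title numbers 7, 34 and 20. The lower Rps16 came to -1.84 without title number 34. Of 21 abundant housekeeping genes 0 passed the limit. Read against 7.72% of all genes, the lower shares of the 4 lists were 6.90%, 14.3%, 11.1% and 9.09%, and read against 1.92% the higher shares were 3.45%, 0%, 0% and 6.82%. Lower calls outnumber higher ones among all genes as well.

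Markers of other cell types did not pass the limit either way, but epithelial genes were detected more widely in Runx1-low cells. Of 22 epithelial genes compared, 0 passed the limit (beside 1.92% higher and 7.72% lower of all genes), with a median of -0.32. Per cell, 1, 5 and 24 of 25 epithelial genes were detected in the lowest, median and highest Runx1-high cell, against 3, 10 and 23 in Runx1-low cells. Their summed level ran from 4.88 through 355 to 20982 TPM in Runx1-high cells and from 11.9 through 66.5 to 27456 TPM in Runx1-low cells, so the sets overlapped. Its part in the other differences was not tested. The 3 erythroid genes compared had a median of -0.74 and the 3 T cell genes 0.12. Of the macrophage and dendritic, endothelial, neutrophil, B and plasma cell, stromal and megakaryocyte lists, 1 to 4 genes each could be compared and 0 passed the limit, and no mast cell and basophil gene could be compared.

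**Figure D4:**
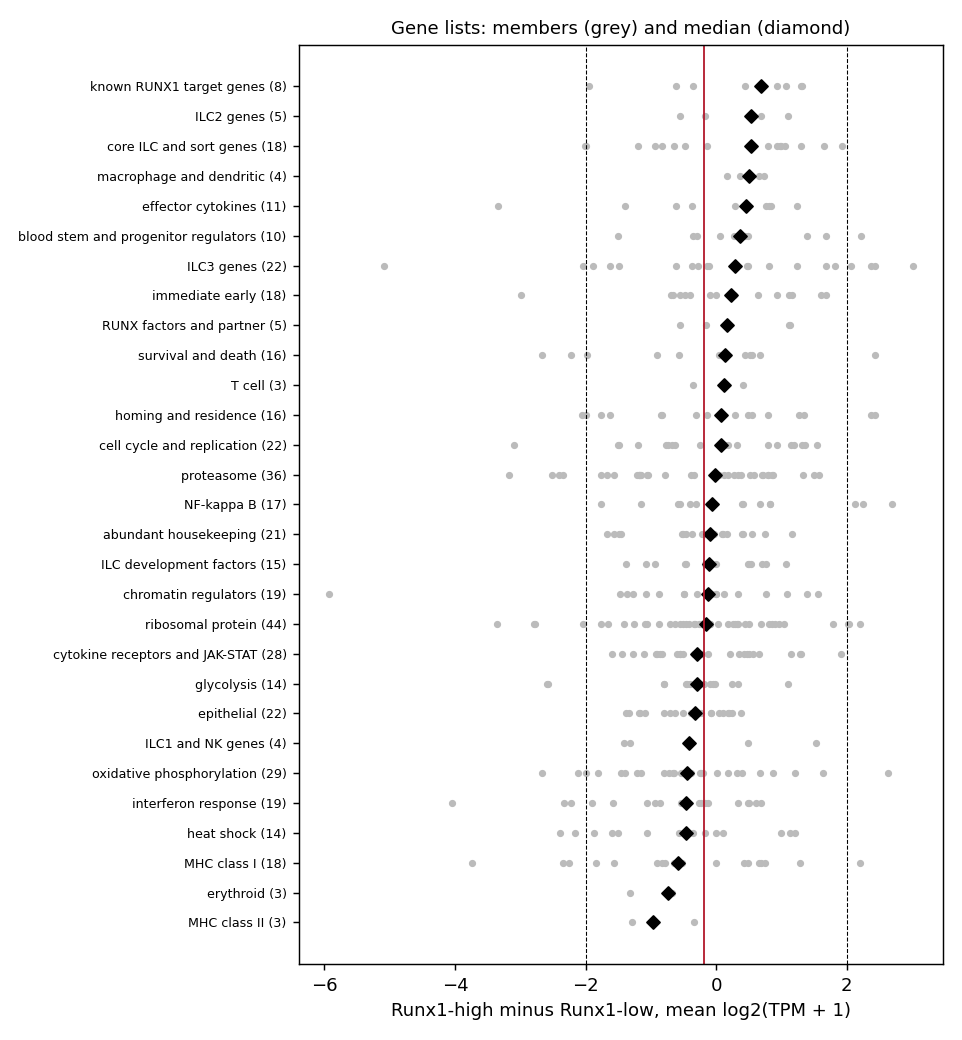
Difference of mean log2(TPM + 1), Runx1-high minus Runx1-low (x axis), for the compared members of each gene list (rows), with grey points for genes and a black diamond for the list's median. Most medians lie between -0.58 and 0.69, and single genes such as Eed at -5.94 and Tmem176a at 3.02 lie far from their list's median.

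The regenerated cells outside the rule gave another view of the named genes. In those 32 cells, 23 with Runx1 at 1 TPM or more were set against 9 below 1 TPM, all 9 listed at 0, over 5527 genes, of which 72.5% were higher in the cells with Runx1. By the limit of 2, 390 were higher (7.06%) and 43 lower (0.778%). Of the 15 genes named as higher, 11 were higher there too (73.3%). Of 14 of the 15 named as lower that could be compared, 4 were lower (28.6%), beside 27.5% of all genes. Over all genes called higher or lower in the 35 cells, 86 of 119 were higher (72.3%) and 110 of 423 were lower (26%) in the outside cells. Hoxa9 differed by 0.52 and Tmem176a by 0.61 there. The shares of kept signs among named and called genes were thus close to the background of all genes in those cells, where Runx1 levels were lower and the detected genes fewer than in the 35 cells. An exact 0 can be a failed estimate, so the outside cells may not be split by Runx1 level. For that reason this contrast cannot decide whether the named differences recur.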

How the data were processed

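Single intestinal ILCs were profiled by full-length RNA sequencing. Per the labels' protocols, the kits were Discover-sc WTA Kit V2 for cDNA and TruePrep DNA Library Prep Kit V2 for libraries. The tools bcl2fastq, StringTie 1.3.4, SAMtools 0.1.19 and HISAT2 2.1.0 and the build mm10 are named, without an order, per the submitters' processing notes. The authors deposited TPM for 23420 gene symbols, 1 table each for regenerated and wild-type cells, and 0 columns went unmapped. TPM keeps no depth, so the depth per cell is unknown.

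From these values, means of log2(TPM + 1), shares of cells at 1 TPM or more and exact Clopper-Pearson 95% intervals were computed, for genes at 1 TPM or more in at least 4 of the 35 cells. No test was made, since the labels name no animal and each set of cells counts as 1 sample. The calculation was tested on simulated data. Genes were named by rule: the 15 with the largest difference each way among those with a stable sign that 50% or more of the higher set's cells detect (leaving out predicted, mitochondrial and cytosolic ribosomal protein genes), Hoxa9 and the RUNX family, list members past the limit or, up to 4 a list, most abundant, and 6 genes most like Runx1. Genes of 36 lists were counted. The members and lists were chosen with earlier results of these data known. Not every gene under the rule is reported here. Doublets were not called; an alternative dropped cells of more than 4000 genes. Scripts used scipy 1.17.1, pandas 2.3.3, numpy 2.4.6 and matplotlib 3.10.9 under Python 3.11.15. Sequences and starts are from RefSeq (GRCm38.p6), matched by symbol. Alternatives varied pseudocount, mean, filters, scaling, the Runx1 limit and the cells kept.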

Additional observations from a re-analysis of the deposited data

Results flagged for a closer look

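The number of detected genes among the 8 Runx1-low cells contained a value far from the others, 5787 genes in the cell of title number 1. Its distance to the next cell, as a share of the whole range, was 0.721, above Dixon's critical value of 0.526 for 8 values. Chance flags about 1 in 20 groups. The same cell had the Hba-a1 share of 19.3% of its TPM described above, and its part in the counts is given beside them.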

How the results depend on the processing

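The Hoxa9 difference was 5.45 with a pseudocount of 10 TPM and stayed between 6.59 and 7.21 with each Runx1-low cell left out. The counts of genes depended on the settings. In what follows, the highest cell of each set was taken gene by gene, so the cell left out can differ between genes. Genes higher in Runx1-high cells numbered 311 and 18 with pseudocounts of 0.1 and 10 TPM, 1551 by the log2 ratio of mean TPM (against 646 lower, so the balance turned), 242 without the highest cell of each set, 292 without Runx1-low cells under 100 TPM of Il7r, and 116 to 212 with each Runx1-low cell left out. Lower genes numbered 1063 and 108 with those pseudocounts, 241 among genes detected in at least 18 cells, 303 without the highest cell of each set, and 516 to 627 with each Runx1-low cell left out. Genes detected more often numbered 9 at 10 TPM, 13 among genes detected in at least 18 cells, 41 without cells of over 4000 genes, 46 in a shared range of genes per cell, 72 without the highest cell, 81 without the Il7r-poor cells, 36 without Runx1-low cells of 50 to 100 TPM of Runx1, and 20 to 60 with each cell left out. Genes detected less often numbered 37 among genes detected in at least 18 cells, 360 with a Runx1 limit of 50 TPM, 384 without the cells of 50 to 100 TPM, and 128 to 229 with each cell left out. The cause was not tested. The median difference of all genes ran from -0.25 to -0.02 with each cell left out, and was above 0 by the log2 ratio of mean TPM (0.21), without the highest cell of each set (0.24) and without the Il7r-poor cells (0.11). A Runx1 limit of 200 TPM gave the same sets. Leaving out cells by Il7r or by Runx1 of 50 to 100 TPM was chosen after seeing the data. Of 72 named genes past the limit, 2 reversed in 1 setting each: Rps15 to -0.41 with a Runx1 limit of 50 TPM and Trp53 to 0.076 by the log2 ratio of mean TPM. A Runx1-low set under 1 TPM gave no value, since it held 0 cells. No paired analysis was possible because the replicate numbers only name cells and no test was made. Depth is unknown, so genes listed at 0 set no lower limit of expression.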
